A study of Homo sapiens with 6 samples.

Results

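The 9 genes described here are AKR1C1, AKR1C2, AKR1C3, NQO1, GCLM, GCLC, GSR, TXNRD1 and SRXN1, a set of antioxidant and detoxification genes that are known or proposed targets of the transcription factor NRF2. They were picked by name, with earlier results of the same libraries known, in which AKR1C1 and GSR had stood out between induced and uninduced cells. They are 9 of the 33367 genes to which the transcripts were summed, and all 9 were among the 14075 genes left by a filter on low counts. AKR1C3 was the thinnest of them in clone c2, with 23.3 and 17.2 estimated reads in its induced and uninduced libraries.

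The measurements are RNA sequencing of 6 cultures of K562, an established human erythroleukaemia line, taken at day 4. Clones c1 and c2 carried a doxycycline-inducible short hairpin RNA (shRNA) against CDAN1, and clone NT carried a non-targeting shRNA. The deposited tables of c2 are named with another clone number, and the sample titles, which give c2, were followed. The 2 induced CDAN1 shRNA libraries came from c1 and c2 with doxycycline at 1 µg/ml, and the 2 uninduced CDAN1 shRNA libraries from the same clones without it. Clone NT gave 1 library with and 1 library without doxycycline. All 6 cultures were kept in puromycin at 2 µg/ml. The study compared the induced CDAN1 shRNA clones with 4 controls, which are the uninduced clones and both NT libraries. Each of the 3 clones is a single clone with 1 culture per state, so any p-value reflects the spread among these libraries alone, and a difference between clones cannot be told apart from a difference between constructs.

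NRF2, encoded by NFE2L2, is held at a low level by KEAP1, which hands it to a ubiquitin ligase for degradation. When oxidants or electrophiles modify KEAP1, NRF2 accumulates, pairs with a small MAF protein and binds antioxidant response elements near its targets, where BACH1 competes as a repressor. The products fall into a few functional groups. GCLC and GCLM form the enzyme that makes the first step of glutathione synthesis, and GSR reduces oxidised glutathione with NADPH. TXNRD1 reduces thioredoxin, SRXN1 repairs overoxidised peroxiredoxins, NQO1 reduces quinones, and the AKR1C enzymes reduce ketones, steroids and lipid aldehydes. In red cell precursors these systems protect haemoglobin and membranes from oxidation.

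AKR1C1, AKR1C2 and AKR1C3 lie in a cluster on chromosome 10 and are near-identical copies, which bears on how far their reads can be told apart. The first 150 coding bases are shown for each, from GENCODE release 29 transcripts (GRCh38), with capitals at the 21 positions where the 3 sequences are not all the same.
AKR1C1: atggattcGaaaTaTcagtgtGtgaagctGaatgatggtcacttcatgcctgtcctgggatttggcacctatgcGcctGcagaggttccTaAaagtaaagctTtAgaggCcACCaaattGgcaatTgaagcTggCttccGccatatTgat
AKR1C2: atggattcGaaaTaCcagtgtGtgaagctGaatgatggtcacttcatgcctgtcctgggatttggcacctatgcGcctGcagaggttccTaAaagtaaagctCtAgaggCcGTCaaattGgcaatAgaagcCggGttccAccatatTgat
AKR1C3: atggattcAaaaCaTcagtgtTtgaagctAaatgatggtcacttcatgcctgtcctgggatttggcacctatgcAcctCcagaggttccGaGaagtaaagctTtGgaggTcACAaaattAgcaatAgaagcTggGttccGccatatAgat
In this stretch AKR1C1 differed from AKR1C2 at 8 positions and from AKR1C3 at 15, and AKR1C2 differed from AKR1C3 at 19. Over the whole coding sequence of 972 bases, AKR1C1 and AKR1C2 differed at 19 positions, and their proteins of 323 residues at 7 residues. AKR1C3 was 91.9% identical to AKR1C1 and 91.3% identical to AKR1C2 in coding bases.

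The sharing extended over the transcripts. Of the 31-base words in the listed AKR1C1 transcripts, 35.1% also occurred in AKR1C2, and of the words in AKR1C2 transcripts 61.0% also occurred in AKR1C1. AKR1C3 shared 18.8% of its words with AKR1C1 and 19.3% with AKR1C2. Salmon divides reads from such stretches among the copies by estimation, so single values of AKR1C1 and AKR1C2 are uncertain, and their sum with AKR1C3 is given beside them. The tables listed 5 of 5 AKR1C1 transcripts of GENCODE 29 but 3 of 10 for AKR1C2 and 2 of 11 for AKR1C3. The likeness reached upstream as well, since the 300-base windows around the starts of AKR1C1 and AKR1C2 were 97.3% identical in RefSeq (GRCh38.p14), over 296 aligned columns.

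The core of the antioxidant response element, TGACNNNGC on either strand, was searched in RefSeq windows from 250 bases before to 50 after gene starts (GRCh38.p14). It occurred in 13.3% of all 35116 windows and in 3 of the 10 windows of the 8 genes with an entry, 1 of GCLM and 2 of TXNRD1. The match of GCLM and that of the TXNRD1 window next to most of its reads are shown with the core in capitals. Both sequences are written on the strand of the gene. In both the core lies on the opposite strand, so the capitals read as the reverse complement of TGACNNNGC.
GCLM: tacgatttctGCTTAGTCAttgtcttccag
TXNRD1: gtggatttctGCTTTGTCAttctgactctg
The GCLM stretch is chr1:93909445-93909474 on the minus strand, and its core starts 34 bases before the RefSeq gene start. The GENCODE 29 start of GCLM, 93909456, lies inside this stretch. The TXNRD1 stretch is chr12:104286920-104286949 on the plus strand, with the core starting 102 bases before the RefSeq start of its window. Transcripts that begin inside these 2 windows, or within 100 bases of their ends, held 96.8% to 98.4% of the GCLM reads. For TXNRD1 they held 86.4% to 92.4% of the reads of a library. A match of letters is a description and shows no binding, and the windows of the other genes were searched for these letters only.

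The 6 libraries held between 28318555 and 32352246 estimated reads. CDAN1 itself stood at 45.8% of the uninduced level in induced c1 and at 53.7% in induced c2, against 112.3% in induced NT. Taken from TPM, the share was 65.0% for c1 against 55.1% for c2 (NT 116.4%), so the order of c1 and c2 turned with the unit. All 14 erythroid markers of the K562 list passed the filter, and their summed level was 14007 and 12480 CPM (the reads of a gene relative to the size of its library, scaled by TMM) in induced and uninduced c2, against 17507 to 18830 CPM in the 4 libraries of c1 and NT. Of 12 markers of other cell types, 7 were under 1 CPM in all libraries, MS4A1 was at 0 in all of them, and the list summed to between 60.1 and 89.4 CPM, mostly from EPCAM and PECAM1. In such bulk samples, fewer cells that express a gene and less RNA per cell cannot be told apart.

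Compared per transcript length, TXNRD1 was the highest of the 9 genes, with a mean of 114.7 ± 3.8 TPM (SD over all 6 libraries), and it varied only between 110.0 and 119.3 TPM. NQO1 followed with 71.7 ± 25.2 TPM and GSR with 46.4 ± 12.5 TPM. GCLM had 34.4 ± 5.4 TPM, AKR1C1 32.3 ± 18.8 TPM and SRXN1 25.0 ± 1.7 TPM. Most of the AKR1C1 value came from AKR1C1-203, a transcript of 744 bases, with 44.0 of 48.2 TPM in uninduced c1. Of the 31-base words of AKR1C1-203, 68.5% occur in another gene, so the place of AKR1C1 in this order is uncertain. In CPM, which takes no account of length, AKR1C1 averaged 24.9, against 55.7 for SRXN1 and 113.4 for GCLM. GCLC, the catalytic subunit of the glutathione-making enzyme, was far below its modifier partner GCLM, with 6.65 ± 1.05 TPM. AKR1C3 had 3.77 ± 2.40 TPM and AKR1C2 1.21 ± 0.46 TPM. The ranges over the libraries of neighbours in this order did not overlap between TXNRD1 and NQO1, between SRXN1 and GCLC, and between GCLC and AKR1C3. NQO1, GSR, GCLM, AKR1C1 and SRXN1 overlapped each with the next, as did AKR1C3 with AKR1C2.

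**Figure D1:**
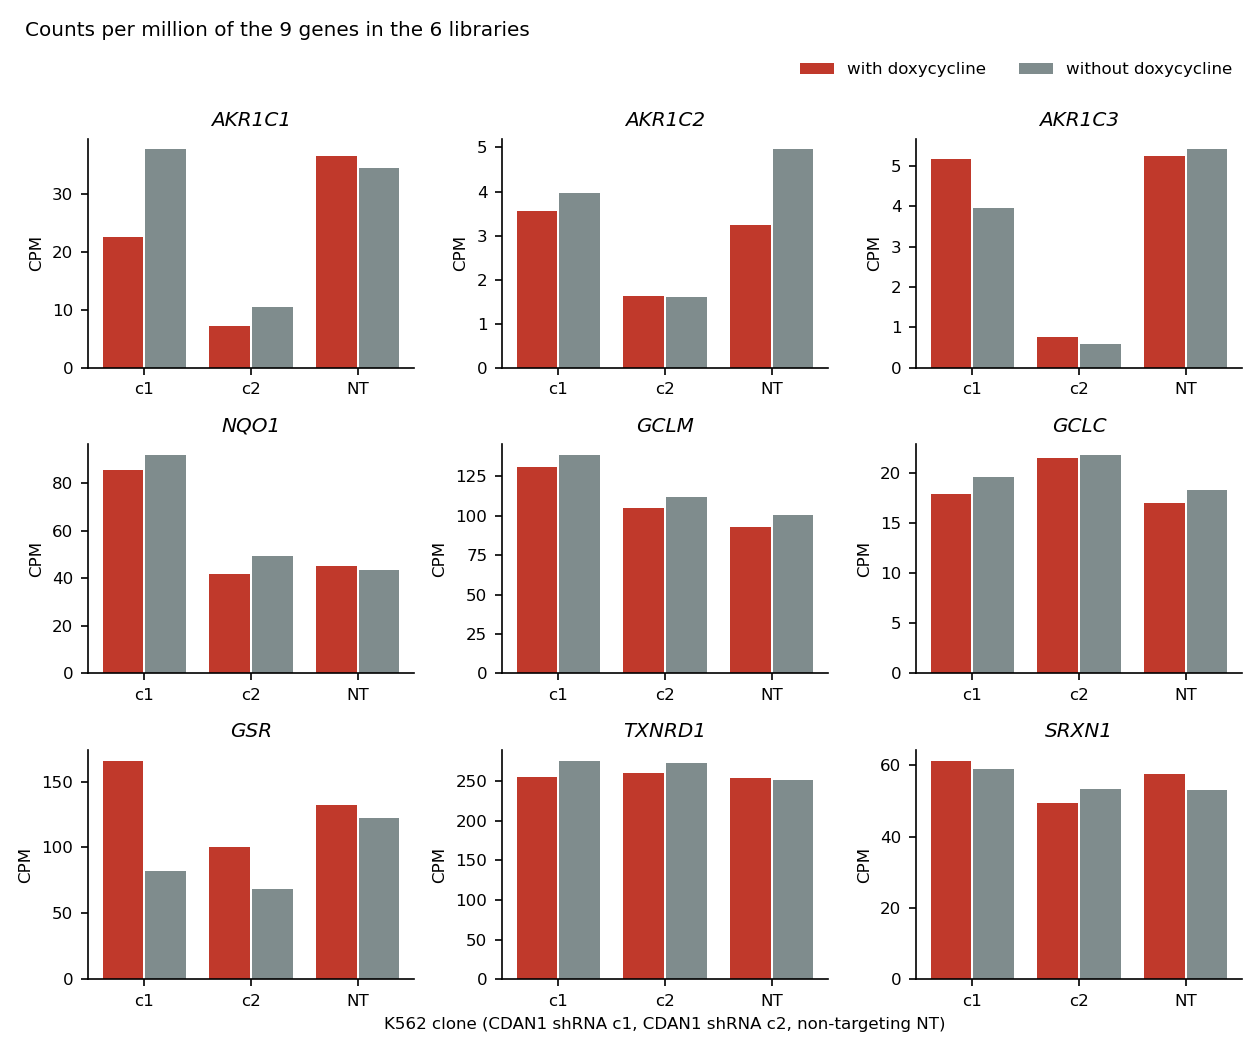
Level in CPM (vertical axes from 0) of the 9 genes, with 1 bar per library; bars with doxycycline stand left of bars without it, and clones c1, c2 and NT run from left to right. GSR stood at 165.7 CPM in induced c1 against 81.8 CPM in uninduced c1, and the 3 AKR1C genes were lowest in both c2 libraries.

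GSR, glutathione reductase (ENSG00000104687, chromosome 8, 30678061 to 30727999 on GRCh38), had 165.7 CPM in induced c1 against 81.8 CPM in uninduced c1. It had 100.3 CPM in induced c2 against 68.6 CPM in uninduced c2, and 132.2 CPM in induced NT against 122.1 CPM in uninduced NT. Each clone was therefore higher with doxycycline than without, and the size of the step differed between them. Induced c1 was at 202.6% of uninduced c1 (95% interval 192.8% to 212.9%, exact binomial, counting error only). Induced c2 was at 146.3% of uninduced c2 (138.2% to 154.9%), and induced NT at 108.3% of uninduced NT (103.3% to 113.7%). The intervals of the 3 clones did not overlap, but each rests on 1 library against 1 and leaves out the spread between cultures.

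The levels of GSR do not place the induced CDAN1 shRNA clones above the non-targeting clone. Without doxycycline, c1 stood at 67.0% and c2 at 56.2% of uninduced NT. With doxycycline, c1 stood at 125.3% and c2 at 75.9% of induced NT. Induced c2, at 100.3 CPM, was thus below both NT libraries, and the knockdown libraries overlapped with the controls. Nearly all GSR reads lay on 1 transcript, GSR-201, which held 95.6% of them in induced c1 against 94.2% in uninduced c1. The shares in c2 were 91.2% with doxycycline against 87.9% without. Reads of GSR-201 alone gave 158.4 CPM in induced c1 against 77.0 CPM in uninduced c1. GSR shared 3.81% of its 31-base words with any other gene.

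AKR1C1 (ENSG00000187134, chromosome 10, 4963253 to 4983283), an enzyme that inactivates progesterone and reduces lipid aldehydes, moved the other way. It had 22.6 CPM in induced c1 against 37.8 CPM in uninduced c1, 7.15 CPM in induced c2 against 10.6 CPM in uninduced c2, and 36.5 CPM in induced NT against 34.5 CPM in uninduced NT. Both CDAN1 shRNA clones were lower with doxycycline and NT was not. Induced c1 was at 60.0% of uninduced c1 (54.4% to 66.1%), induced c2 at 67.4% of uninduced c2 (56.3% to 80.4%), and induced NT at 105.8% of uninduced NT (96.6% to 116.0%). Clone c2 was already low without doxycycline, so uninduced c2 lay below induced c1. The 2 induced libraries therefore did not separate from the 4 controls.

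The AKR1C1 reads were divided mainly between a transcript of 6705 bases (AKR1C1-202) and a short coding transcript of 744 bases (AKR1C1-203). Of the 31-base words of the short one, 68.5% occur in another gene. In c1 the short transcript had 310.6 estimated reads with doxycycline against 569.4 without, and the long one 354.9 against 415.9. In c2 the short transcript had 109.0 reads with doxycycline against 151.3 without, and the long one 85.0 against 145.1. Both transcripts were thus lower in the induced library of each clone, although by unequal amounts. In NT the short transcript had 547.0 reads with doxycycline against 530.8 without, and the long one 320.8 against 324.2. A further transcript, AKR1C1-205, did not share the fall in c2. It had 17.9 reads with doxycycline against 76.9 without in c1, 16.7 against 11.0 in c2, and 88.6 against 50.7 in NT.

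**Figure D2:**
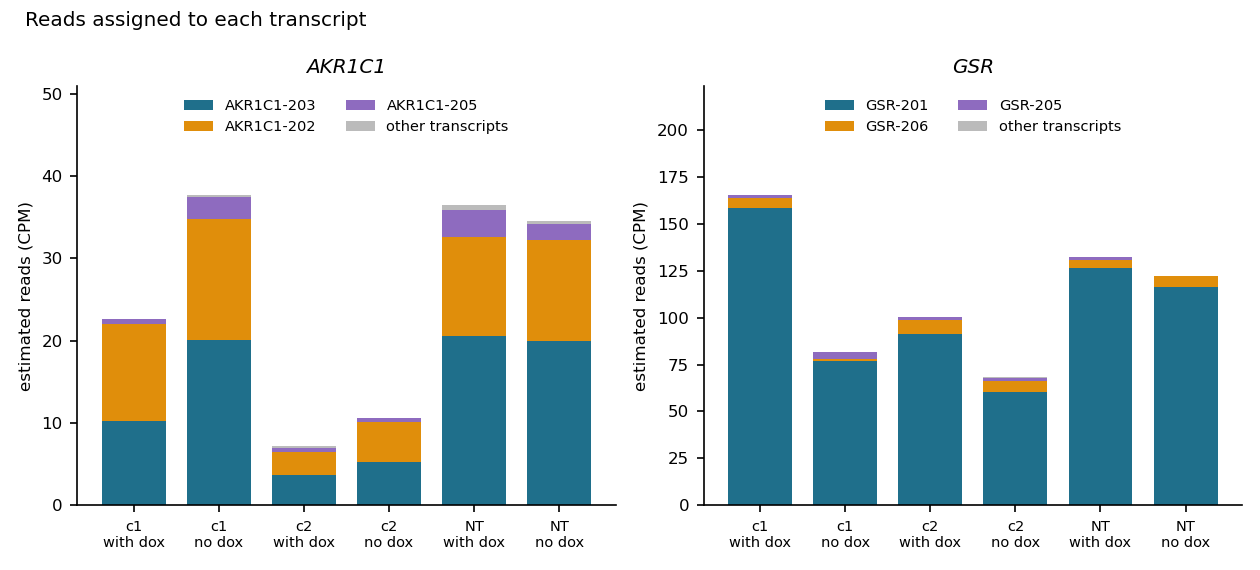
Estimated reads (CPM, vertical axes from 0) assigned to the transcripts of AKR1C1 and GSR, as stacked bars with 1 bar per library, each clone with doxycycline left of without. AKR1C1 reads were split mainly between AKR1C1-203 and AKR1C1-202, while GSR-201 carried 87.9% to 95.6% of GSR reads.

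The 2 close copies of AKR1C1 had far fewer reads and wider intervals, and their responses were not tested against that of AKR1C1. AKR1C2 (chromosome 10, 4987400 to 5018031) had 3.56 CPM in induced c1 against 3.96 CPM in uninduced c1, 1.62 CPM in induced c2 against 1.61 CPM in uninduced c2, and 3.23 CPM in induced NT against 4.96 CPM in uninduced NT. Its largest step was in NT, where the induced library was at 64.8% of the uninduced one (48.8% to 85.7%). AKR1C3 (chromosome 10, 5035354 to 5107686), which makes testosterone and prostaglandins of the F series, had 5.17 CPM in induced c1 against 3.95 CPM in uninduced c1. In c2 it had 0.772 CPM with doxycycline against 0.590 CPM without, and in NT 5.24 CPM with against 5.42 CPM without. The AKR1C3 ratios were 130.4% for c1 (101.6% to 167.7%), 131.0% for c2 (67.0% to 261.2%) and 96.8% for NT (76.1% to 123.0%), so only the interval of c1 lay above 100%. Summed, AKR1C1, AKR1C2 and AKR1C3 had 31.4 CPM in induced c1 against 45.7 CPM in uninduced c1, 9.54 CPM in induced c2 against 12.8 CPM in uninduced c2, and 45.0 CPM in induced NT against 44.9 CPM in uninduced NT. The sum covers the listed transcripts only, and in CPM it does not depend on how reads are divided among the 3 copies. It was at 68.6% for c1 (63.1% to 74.7%, and 59.1% from TPM), 74.5% for c2 (63.6% to 87.1%) and 100.3% for NT (92.5% to 108.7%).

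NQO1 (chromosome 16, 69706996 to 69726951) changed little with doxycycline and differed between clones. It had 85.6 CPM in induced c1 against 91.7 CPM in uninduced c1, 41.9 CPM in induced c2 against 49.2 CPM in uninduced c2, and 45.1 CPM in induced NT against 43.6 CPM in uninduced NT. The ratio was 93.3% for c1 (88.3% to 98.6%). It was 85.2% for c2 (78.9% to 91.9%) and 103.7% for NT (95.5% to 112.5%). NQO1 shared 18.4% of its words with other genes, and 15.8% of all its words occurred in AC092115.2, a gene that was not among those summed.

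The 2 subunits of glutamate-cysteine ligase stayed close to their uninduced levels in CPM. GCLM, the modifier subunit (chromosome 1, 93885205 to 93909456), had 130.9 CPM in induced c1 against 138.5 CPM in uninduced c1, 105.2 CPM in induced c2 against 111.9 CPM in uninduced c2, and 93.0 CPM in induced NT against 100.8 CPM in uninduced NT. Its ratios of 94.5%, 94.0% and 92.3% in c1, c2 and NT lay within 3 percentage points of each other. Their intervals (90.4% to 98.8%, 89.5% to 98.7% and 87.3% to 97.5%) all lay below 100%. Taken from TPM, the GCLM ratios were lower and further apart, at 84.5%, 86.4% and 91.3%. GCLC, the catalytic subunit (chromosome 6, 53497341 to 53616970), had 18.0 CPM in induced c1 against 19.6 CPM in uninduced c1, 21.5 CPM in induced c2 against 21.8 CPM in uninduced c2, and 17.0 CPM in induced NT against 18.4 CPM in uninduced NT. The intervals of all 3 GCLC ratios (91.4%, 98.6% and 92.8%) included 100%.

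TXNRD1, thioredoxin reductase (chromosome 12, 104215779 to 104350305), was the steadiest gene in CPM too. It had 256.0 CPM in induced c1 against 275.9 CPM in uninduced c1, 261.0 CPM in induced c2 against 272.6 CPM in uninduced c2, and 254.2 CPM in induced NT against 251.2 CPM in uninduced NT. Its ratios lay between 92.8% and 101.2%, but between 101.1% and 106.6% when taken from TPM, which turned the direction in c1 and c2. SRXN1, sulfiredoxin (chromosome 20, 646615 to 653370), had 61.3 CPM in induced c1 against 59.0 CPM in uninduced c1, 49.6 CPM in induced c2 against 53.5 CPM in uninduced c2, and 57.7 CPM in induced NT against 53.2 CPM in uninduced NT. Its ratios were 103.9%, 92.7% and 108.6% in c1, c2 and NT, with no shared direction between the CDAN1 shRNA clones. SRXN1 shared 84.9% of its words with AL121758.1, which held at most 0.168 CPM in any library.

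**Figure D3:**
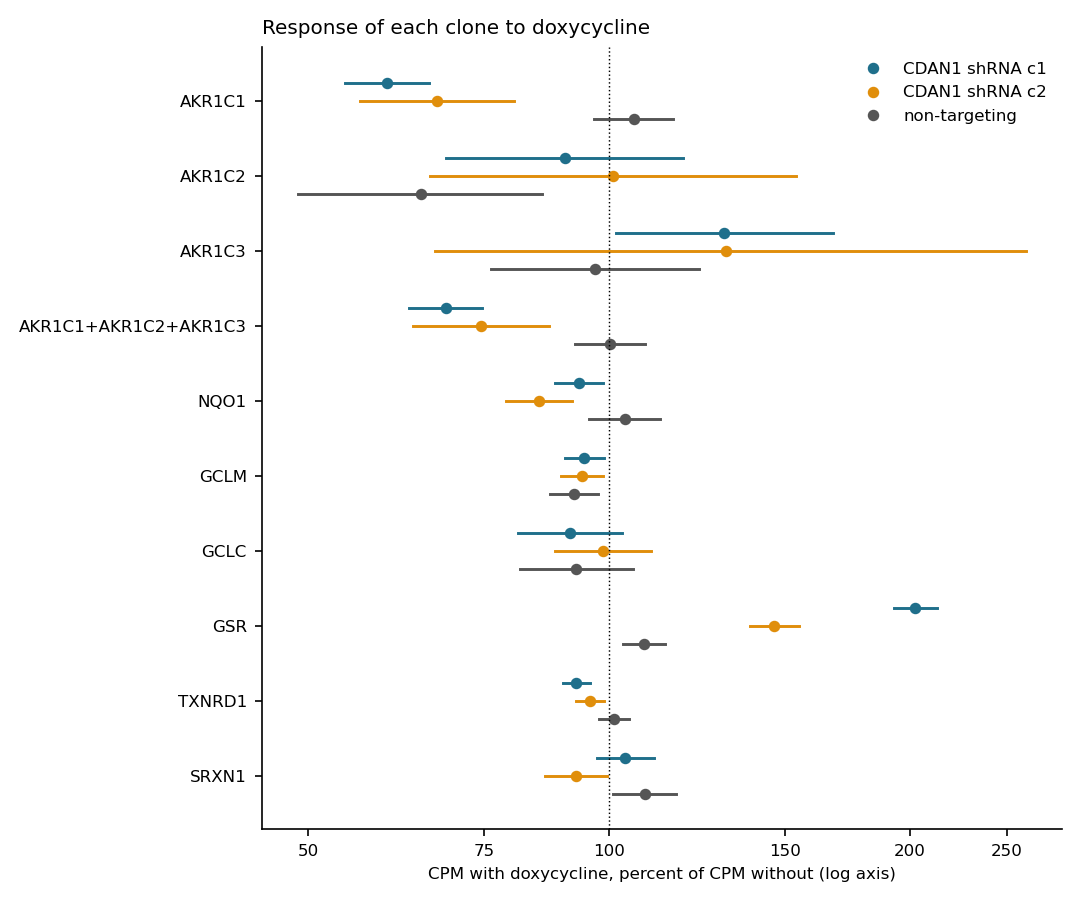
Level with doxycycline as a percentage of the level without it (log axis), for each gene and for the sum of the 3 AKR1C genes, with 1 point per clone and lines for the 95% exact interval of counting error. GSR lies to the right of 100% in all 3 clones, AKR1C1 and the AKR1C sum lie to the left in c1 and c2 only, and the other genes lie near 100% or have wide intervals.

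The fits across all genes set these values against the spread between clones. When the 2 induced CDAN1 shRNA libraries were compared with the 4 controls, edgeR's quasi-likelihood test with Benjamini-Hochberg adjustment called 0 of the 14075 genes (0%) at an adjusted p under 0.05. It gave 322 genes an unadjusted p under 0.05, DESeq2 called 22 genes and limma voom 0. GSR averaged 133.0 ± 46.2 CPM in the knockdown libraries (SD, n = 2) and 101.2 ± 30.8 CPM in the controls (SD, n = 4), a log2 fold change of 0.40 ± 0.31 (SE). AKR1C1 averaged 14.9 ± 11.0 CPM in the knockdown libraries and 29.8 ± 12.9 CPM in the controls, with a log2 fold change of −1.002 ± 0.631. Without induced c1 these were −0.015 for GSR and −2.07 for AKR1C1, and without induced c2 they were 0.71 for GSR and −0.39 for AKR1C1. All 9 genes had overlapping groups. Over all genes tested, 4.33% lay above all controls in both knockdown libraries and 5.17% below.

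For induced against uninduced CDAN1 shRNA clones, the fit without a clone term also called 0 genes (0%), with 207 at an unadjusted p under 0.05, 2 calls by DESeq2 and 0 by limma voom. With the clone as a block, which compares each clone with itself, edgeR called 141 genes, or 1.00% of those tested. Among them were GSR, with a log2 fold change of 0.79 ± 0.10 (SE), and AKR1C1, with −0.67 ± 0.10. These SEs lean on the spread over all genes, since the block leaves few libraries to estimate it, and do not measure the spread between clones. The log2 responses in c1 and c2 were 1.02 and 0.55 for GSR, and −0.74 and −0.57 for AKR1C1. GSR and AKR1C1 were known from this contrast when the genes were picked, so nothing is read from 2 of 9. Blocked DESeq2, which called 69 genes (0.490%), held GSR and not AKR1C1, and blocked limma voom, with 104 genes (0.739%), held both. The other 7 genes had blocked log2 fold changes between −0.16 for NQO1 and 0.38 for AKR1C3, and none of the 3 blocked tests called them. With doxycycline 2 of the 9 genes, GSR and AKR1C3, were higher in both CDAN1 shRNA clones, as were 28.3% of all genes tested, and 5 were lower in both, as were 31.4%. The median of the 9 genes was −0.08, against −0.005 over all genes tested (log2).

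The response of the CDAN1 shRNA clones was also set against the response of NT. With the clone block the difference of responses was 0.67 ± 0.17 (log2, SE) for GSR and −0.75 ± 0.17 for AKR1C1, and it lay between −0.22 and 0.55 for the other genes. Here too the SEs lean on the spread over all genes and do not measure the spread between clones. None of the 9 was called, by edgeR with the block, which called 19 genes (0.135%), or without it, which called 0 (0%) and gave 79 genes an unadjusted p under 0.05. DESeq2 without the block called 5 genes. A difference between the response of the CDAN1 shRNA clones and that of the single NT clone was therefore not shown for any of the 9 genes.

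The level of several genes differed between clones in both doxycycline states. The genes were not chosen on this comparison, but it reuses the 6 libraries in which AKR1C1 and GSR had stood out. The adjusted p-values of GSR and the 3 AKR1C genes are therefore a description and not independent of that choice. The comparison was fitted with clone and doxycycline state as terms, with 2 libraries per clone. Clone c1 was set against NT first. NQO1 averaged 88.6 ± 4.3 CPM in c1 and 44.4 ± 1.1 CPM in NT (SD, n = 2 each), a log2 fold change of 1.00 ± 0.08 (SE, edgeR adjusted p = 0.000315). GCLM averaged 134.7 ± 5.4 CPM in c1 and 96.9 ± 5.5 CPM in NT, a log2 fold change of 0.48 ± 0.05 (edgeR adjusted p = 0.000956). These 2 of 9 rose and none fell, in a comparison in which edgeR called 27.8% of all genes tested, 13.8% as higher and 14.0% as lower. Both calls stood under all 13 alternatives. The other 7 genes had log2 fold changes between −0.28 for AKR1C1 and 0.12 for SRXN1 and were not called, although AKR1C1 was called without uninduced NT (log2 fold change −0.65) and GSR without induced c1 (−0.48) or without induced NT (−0.47).

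Clone c2 was set apart from NT by low AKR1C genes. AKR1C1 averaged 8.86 ± 2.42 CPM in c2 and 35.5 ± 1.4 CPM in NT (SD, n = 2 each), a log2 fold change of −2.04 ± 0.19 (SE, edgeR adjusted p = 0.000449). AKR1C2 averaged 1.62 ± 0.003 CPM in c2 and 4.10 ± 1.22 CPM in NT, a log2 fold change of −1.32 ± 0.24 (edgeR adjusted p = 0.00802). AKR1C3 averaged 0.681 ± 0.129 CPM in c2 and 5.33 ± 0.12 CPM in NT, a log2 fold change of −2.99 ± 0.24 (edgeR adjusted p = 0.000234). With the copies AKR1C1 to AKR1C4 summed to 1 feature, the log2 fold change was −2.03, also called. The AKR1C1 and AKR1C3 calls stood under all 12 alternatives. The AKR1C2 call was lost without uninduced c2 (log2 fold change −1.11) and without uninduced NT (−1.04).

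GSR also fell in c2 against NT, with 84.4 ± 22.5 CPM in c2 and 127.2 ± 7.2 CPM in NT, but less firmly. The log2 fold change was −0.63 ± 0.17 (SE, edgeR adjusted p = 0.0395), and the call stood under 6 of 13 alternatives. It was lost by DESeq2 and limma voom, with a length offset, without the doxycycline term, and without induced c2, uninduced c2 or uninduced NT (log2 fold change −0.28 without uninduced NT). In all, 4 of 9 genes fell and none rose in c2 against NT, where edgeR called 21.1% of all genes tested, 11.8% as higher and 9.21% as lower. GCLC, at 21.6 ± 0.2 CPM in c2 and 17.7 ± 0.9 CPM in NT, had a log2 fold change of 0.29 ± 0.09 (edgeR adjusted p = 0.0582) and was not called. GCLM (log2 fold change 0.16, edgeR adjusted p = 0.0683) was not called either, but was called higher in 2 of 13 alternatives, without induced c1 and without uninduced c1 (0.16 in each). The erythroid markers were lower in c2 as well, with 9 of 14 called lower and a median log2 fold change of −0.27 against NT. Their part in the AKR1C difference was not tested.

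Between the 2 CDAN1 shRNA clones, 5 of 9 genes were higher in c1 than in c2 and none lower, with 26.8% of all genes called, 11.9% as higher and 14.9% as lower. The log2 fold changes were 1.76 ± 0.19 (SE) for AKR1C1, 1.21 ± 0.24 for AKR1C2 and 2.75 ± 0.24 for AKR1C3. They were 0.96 ± 0.08 for NQO1 and 0.31 ± 0.05 for GCLM. The edgeR adjusted p of these 5 genes lay between 0.000237 for NQO1 and 0.00897 for AKR1C2. The GCLM call was lost without either c2 library, and the AKR1C2 call without induced c1 or uninduced c2. GSR had a log2 fold change of 0.51 ± 0.17 (edgeR adjusted p = 0.0657). GSR was called in 4 of 13 alternatives, among them those without uninduced c1 (0.83), without induced NT (0.48) and without uninduced NT (0.50).

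**Figure D4:**
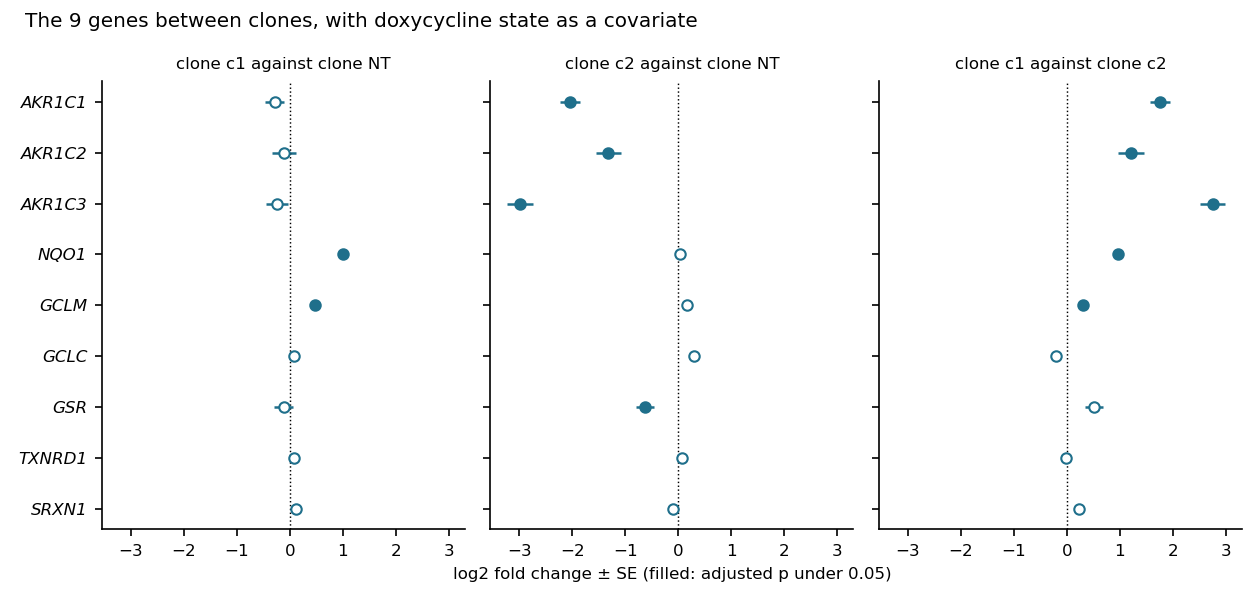
Log2 fold change between clones with its standard error (horizontal axes) for the 9 genes in 3 comparisons; filled points passed an edgeR adjusted p of 0.05. The 3 AKR1C genes lie between −1.32 and −2.99 in c2 against NT and between −0.11 and −0.28 in c1 against NT, and NQO1 and GCLM lie to the right in c1.

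Counted by libraries in CPM, NQO1, GCLM and SRXN1 were higher in both c1 libraries than in any library of c2 or NT, a pattern that 18.3% of all genes tested showed. The 3 AKR1C genes were lower in both c2 libraries than in any other, as were 14.5% of all genes, and GCLC was higher there, as were 16.1%. GCLM and TXNRD1 were lower in both NT libraries than in any other, as were 16.3% of all genes, and AKR1C3 was higher there, as were 16.0%. GSR was the only one of the 9 genes whose clones overlapped in all 3 groupings. In TPM the low place of NT was lost for both GCLM and TXNRD1, and the other placings stood.

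No main test called a response of a pathway regulator to doxycycline, but these tests called 0 of the 14075 genes, and not CDAN1 either. With the clone block, edgeR called 0 of the 13 regulators between induced and uninduced clones, against 1.00% of all genes. NFE2L2, which encodes NRF2, had 116.9 CPM in induced c1 against 115.9 CPM in uninduced c1, 101.9 CPM in induced c2 against 101.4 CPM in uninduced c2, and 116.2 CPM in induced NT against 118.5 CPM in uninduced NT. KEAP1, its inhibitor, had 125.2 CPM in induced c1 against 112.8 CPM in uninduced c1, and 93.2 CPM in induced c2 against 101.2 CPM in uninduced c2. The induced libraries of the repressor BACH1 were at 83.5%, 99.5% and 94.6% of the uninduced ones in c1, c2 and NT, those of MAFG at 110.8%, 106.9% and 92.5%, and those of MAFF at 85.4%, 87.3% and 88.7%. Of the 13 regulators, 0 passed a 1.5-fold step in any of the 3 clones, where 5.49% of all genes were at least 1.5 times higher and 6.50% at least 1.5 times lower with doxycycline in c1. Those shares were 4.70% and 4.70% in c2 and 4.31% and 6.05% in NT.

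In the wider lists of the pathway, the genes past a 1.5-fold step are counted against the same shares of all genes. Among 29 other glutathione genes tested, the median log2 response was −0.03 in c1, −0.04 in c2 and −0.03 in NT. With doxycycline, 2 of these 29 were at least 1.5 times higher and 2 at least 1.5 times lower in c1 (5.49% and 6.50% of all genes). The counts were 0 and 1 in c2 (4.70% and 4.70%), and 1 and 5 in NT (4.31% and 6.05%). The 2 higher in c1 were near the floor, with GPX1 at 1.03 CPM and GPX3 at 0.397 CPM in induced c1. Among 19 other thioredoxin and peroxiredoxin genes, 1 was at least 1.5 times lower in NT, and 0 passed 1.5-fold in c1 or c2. Among 24 other NRF2 target genes, 1 was at least 1.5 times higher in c2, SOD3, at 0.531 CPM with doxycycline and 0.308 CPM without. The median log2 response of the 24 was 0.06 in c1, 0.07 in c2 and 0.06 in NT. Fitted over both CDAN1 shRNA clones with the clone block, the median of these 24 was 0.10 (log2), against −0.005 over all genes tested, and 17 of 24 were positive. The same median was −0.07 for the 29 glutathione genes (13 positive) and 0.006 for the 19 thioredoxin and peroxiredoxin genes (10 positive). It was 0.12 for the 14 erythroid markers (12 positive), so a rise was not particular to these NRF2 targets. Of 6 other AKR genes, only AKR7A3 was at least 1.5 times higher, in c2 and in NT, with at most 0.788 CPM in any library. HMOX1, the haem oxygenase that NRF2 and BACH1 govern in many cells, had at most 0.0343 CPM in any library. It did not pass the filter and was not tested. Between induced and uninduced clones, blocked edgeR called 0 of the tested glutathione, thioredoxin, peroxiredoxin, NRF2 target and AKR genes of these lists. It called 1 of the 14 erythroid markers (7.14%), against 1.00% of all genes tested.

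**Figure D5:**
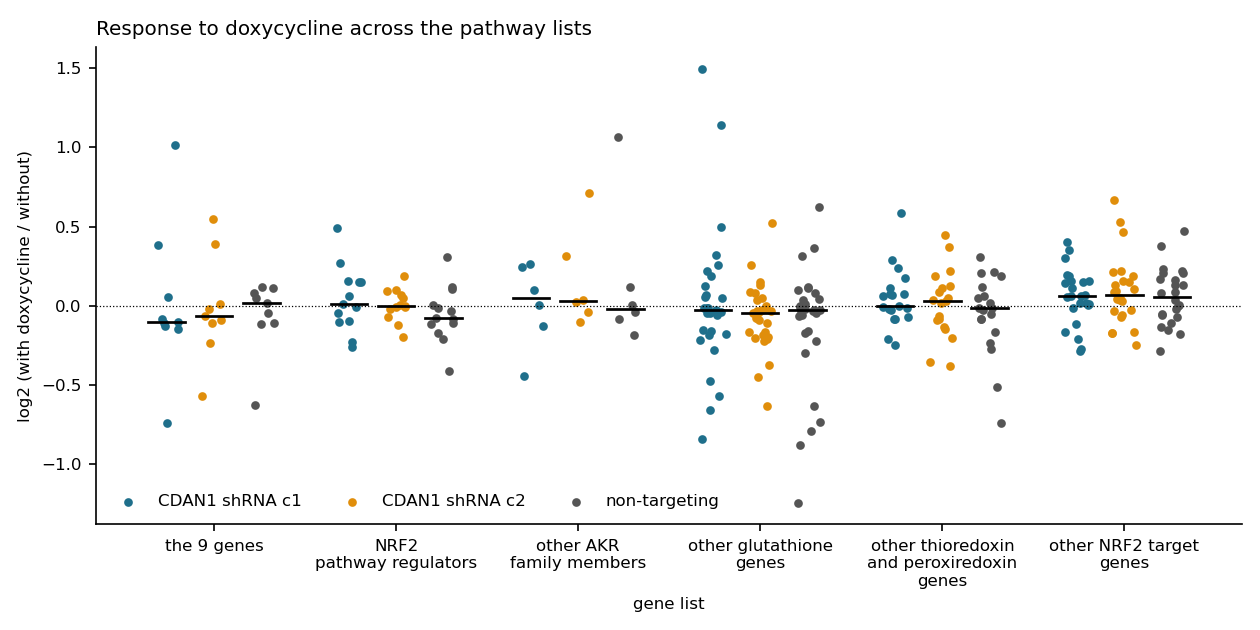
Log2 ratio of CPM with doxycycline to CPM without it (vertical axis) for every tested gene of 6 lists, with 1 point per gene and clone and a black bar at the median. The medians lie near 0 in each list and clone, and in c1 GSR is the highest and AKR1C1 the lowest of the 9 genes.

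Between clones, the regulators differed in part. Against NT, c1 called 1 of 13 higher, BTRC (0.53, log2), a ubiquitin ligase subunit, and 2 lower, the repressor BACH2 (−0.62) and the NRF2 partner MAFG (−0.23). Against NT, c2 called 4 of 13 lower, BACH2 (−0.69), MAFG (−0.45), KEAP1 (−0.32) and NFE2L2 (−0.21), and none higher. These are 23.1% of the 13 called in c1 and 30.8% called in c2, all lower, against 27.8% of all genes called in c1 and 21.1% in c2, with 9.21% lower. The log2 fold changes of BACH1 were 0.15 in c1 and −0.01 in c2 against NT, and those of MAFF −0.10 and 0.33, with no call. The median of the 13 was −0.01 in both comparisons, against −0.002 and −0.001 over all genes. Of the 6 other AKR genes tested, AKR1E2 (−1.20) was lower in c1 than in NT, and AKR1B1 (0.66), aldose reductase, was higher in c2 than in NT.

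Of the 29 other glutathione genes, 5 were higher and 9 lower in c1 than in NT, or 48.3% called against 27.8% of all genes. The largest changes were those of the membrane transferase MGST1 (−2.44, log2), the glutathione-degrading enzyme CHAC1 (−2.35), the exporter ABCC3 (−1.13), the transferases GSTM3 (1.04) and GSTM2 (0.87), and GGT1 (−0.62), which breaks down extracellular glutathione. In c2 against NT 8 rose and 3 fell, or 37.9% called against 21.1% of all genes (11.8% higher, 9.21% lower), with the largest changes in ABCC3 (1.61), GSTM3 (0.82), GSTM4 (0.55), MGST2 (0.52), the glutaredoxin GLRX5 (−0.40) and GSTO1 (−0.39). ABCC3 thus lay on opposite sides of NT in the 2 clones. The list's median log2 fold change was 0.04 in c1 and 0.05 in c2 against NT.

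Of the 19 other thioredoxin and peroxiredoxin genes, 8 were higher and 3 lower in c1 than in NT, or 57.9% called against 27.8% of all genes. They were led by the methionine sulfoxide reductase MSRA (1.00, log2), the sestrins SESN3 (0.92), SESN2 (−0.61) and SESN1 (0.49), thioredoxin itself, TXN (0.54), and PRDX1 (0.29). In c2 against NT 3 rose, MSRA (0.88), PRDX1 (0.37) and TXN (0.22), and 1 fell, TXNDC17 (−0.30). That is 21.1% called, the same share as over all genes (21.1%). Their medians were 0.08 in c1 and −0.09 in c2 against NT.

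Of the 24 other NRF2 target genes tested, 4 were higher and 2 lower in c1 than in NT, which is 25.0% called, near the 27.8% of all genes. They were the NADPH-making malic enzyme ME1 (0.63, log2), the quinone reductase NQO2 (0.59), the epoxide hydrolase EPHX1 (0.43), catalase, CAT (−0.32), biliverdin reductase BLVRA (0.25) and PGD (−0.23) of the pentose phosphate pathway. In c2 against NT none rose and 8 fell, which is 33.3% called lower, against 9.21% of all genes. The largest were the extracellular superoxide dismutase SOD3 (−4.47), BLVRB (−0.62), CAT (−0.44), EPHX1 (−0.35), the porphyrin transporter ABCB6 (−0.34) and BLVRA (−0.30). SOD3 had 0.531 CPM in induced c2 and 0.308 CPM in uninduced c2, against 10.1 CPM in induced NT and 8.59 CPM in uninduced NT. The medians of the list were −0.01 in c1 and −0.11 in c2 against NT. Of the 14 erythroid markers, 9 were called lower (64.3%) and 0 higher in c2 against NT, with a median of −0.27. A fall in c2 was therefore not particular to these NRF2 targets.

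The genes with the pattern most like a member over the 6 libraries were found by the root mean square difference of centred log2 CPM, among 10184 genes with a mean of at least 5 CPM, for the 5 members whose log2 CPM range was above 1. For GSR they were APOL1 (difference 0.11), LTBP4 (0.16) and SDC4 (0.17). LTBP4, which binds latent TGF-beta, had 76.5 CPM in induced c1 against 38.2 CPM in uninduced c1, 58.8 CPM in induced c2 against 42.5 CPM in uninduced c2, and 67.4 CPM in induced NT against 64.3 CPM in uninduced NT. For NQO1 they were FOS (0.10), SHC2 (0.10) and ITM2A (0.11). For AKR1C3 they were ADGRA3 (0.22), MUC15 (0.23) and NPTXR (0.35), and for AKR1C2 IGF1 (0.18), HEXDC (0.19) and BCL6 (0.20). AKR1C1 was matched less closely, with P2RY1 (0.30), CHDH (0.31) and LRP11 (0.35), against its own spread of 0.93 around its mean. P2RY1 had 29.3 CPM in induced c1 against 34.3 CPM in uninduced c1 and 12.9 CPM in induced c2 against 13.2 CPM in uninduced c2, so it shared the low level of c2 more than the step with doxycycline.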

How the data were processed

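RNA abundance was estimated per transcript with Salmon 1.5.2 on GRCh37 (hg19), per the submitters' processing notes. In the deposited tables the authors give estimated counts of reads (expected counts, not whole numbers) and TPM, per the file headers. The sources used here do not give trimming, strand or transcript annotation, so overlapping and antisense genes are uncertain. Of 167268 transcripts, 151039 (90.3%) matched GENCODE 29 by identifier and were summed to 33367 genes. The rest held 6.23% to 6.50% of a library's reads and stayed out. GENCODE 29 lies on GRCh38, whose coordinates are given, and some of its transcripts differ in length from the deposited ones.

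Summed counts were rounded, filtered with filterByExpr (smallest group of 2), TMM-scaled and tested with edgeR 4.0.16 in R 4.3.3 (quasi-likelihood, two-sided, Benjamini-Hochberg over 14075 genes, threshold 0.05, log prior count 2), after tests on simulated data. DESeq2 1.42.0, limma 3.58.1 (voom), no filter, another scaling, a transcript length offset, summed AKR1C copies, a clone block and leaving out each library were alternatives. The samples are paired by clone, which gave 1 library in each state. Across 10390 genes, deviations from the means of the induced and uninduced libraries correlated within clone (r = 0.803 for c1, 0.812 for c2 and 0.749 for NT). Intervals of ratios cover counting error only.

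The members and lists were chosen with earlier results of these data known. The comparisons that share that choice are given for the members without p-values. Those between clones reuse the same libraries, so their p-values for GSR, AKR1C1, AKR1C2 and AKR1C3 are a description. List genes were named if called, up to the 6 with the largest fold change per list and comparison against NT, with NFE2L2, KEAP1, BACH1, MAFG and MAFF always, and the 3 most like genes for each member with a log2 range above 1.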

Additional observations from a re-analysis of the deposited data

Results flagged for a closer look

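Among the 4 control libraries, AKR1C1 stood far below the others in uninduced c2, at 10.6 CPM against 34.5 to 37.8 CPM in uninduced c1, induced NT and uninduced NT. NQO1 stood far above the others in uninduced c1, at 91.7 CPM against 43.6 to 49.2 CPM in the other controls. In both cases the gap to the nearest control as a share of the whole range of the 4 libraries (0.880 for AKR1C1 and 0.882 for NQO1) exceeded Dixon's 95% limit for 4 values. Chance flags about 1 in 20 groups, and the 4 controls are of 3 clones, so they are not replicates of one culture.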

How the results depend on the processing

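The counts of called genes depended on the test. Knockdown against all controls gave 0 calls, but 6 with the clone as a replicate block, 19 with the block and doxycycline, and 22 by DESeq2. Induced against uninduced clones gave 0, but 141, 69 and 104 with the replicate block in edgeR, DESeq2 and limma voom, and 2 by DESeq2 without it. The response difference gave 0, but 19 with the block and 5 by DESeq2. Its blocked fit is the same model as knockdown with the block and doxycycline, so both counts of 19 are the same result. The response difference could not be fitted without either NT library. Leaving out 1 library in turn left 0 calls in these 3, 2224 to 3654 in c1 against NT, 1421 to 3496 in c2 against NT and 1973 to 3953 in c1 against c2, where a lone library of a clone is assumed to vary like the others. Those against NT were 2335 (c1) without uninduced c1, 2224 (c1) and 1740 (c2) without uninduced NT, and 1421 and 1660 (c2) without induced or uninduced c2. In c1 against c2 they were 2081 and 1973 without induced or uninduced c2. The length offset gave 2369, 1792 and 2311 in those 3. It turned TXNRD1 to −0.047 (c1) and −0.035 (c2) against NT and NQO1 to −0.020 (c2). Leaving out 1 library turned the sign of uncalled log2 fold changes, with ranges in c1 against NT of −0.65 to 0.081 for AKR1C1, −0.38 to 0.18 for AKR1C2 and −0.48 to 0.22 for GSR. The ranges in c2 against NT were −0.076 to 0.15 for NQO1 and −0.20 to 0.0061 for SRXN1, and in c1 against c2 −0.042 to 0.038 for TXNRD1. Ratios of TPM in place of CPM moved beyond counting error for AKR1C1 and the AKR1C sum in c1 (52.0% and 59.1%), CDAN1 in c1 (65.0%), GCLM in c1 and c2 (84.5% and 86.4%), TXNRD1 in c1, c2 and NT (101.8%, 101.1% and 106.6%) and GSR in c2 (131.9%). The cause was not tested. With 17.2 to 23.3 reads of AKR1C3 in c2, depth limits its response there.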
